A study of Homo sapiens with 6 samples.

Results

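The subunits of the 3 nuclear RNA polymerases were measured in cells labelled HepG2, an established human liver cancer line, with and without knockdown of the transcription factor SOX9. The members were all probe sets of the deposited table that carry 1 gene symbol beginning with POLR1, POLR2 or POLR3 and a further letter. The rule used names alone but was chosen with earlier results of these data known. It gave 64 of 49293 probe sets, which stand for 25 of 18574 genes. POLR1 held 5 genes on 17 probe sets, POLR2 13 genes on 28 and POLR3 7 genes on 19. Of the POLR2 genes, POLR2E, POLR2F, POLR2H, POLR2K and POLR2L encode subunits that all 3 enzymes share, and these 5 genes had 13 probe sets. Each gene is given below by the probe set with its highest mean over the 6 arrays, and levels are log2 signals, so a difference of 1 is a 2-fold change.

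The control group was 3 arrays of HepG2 cells infected with an empty virus, and the knockdown group 3 arrays of HepG2 cells infected with a virus that carries a short hairpin RNA against SOX9. Both groups were grown in DMEM with 10% fetal bovine serum, and the labels speak of 1 clone for the knockdown and 1 for its control. The description field of the knockdown arrays repeats that of the controls, while title, source and genotype name the knockdown, and the latter were followed. A difference between clones and an effect of the knockdown cannot be told apart in this design. The labels do not say whether replicate arrays stand for separate cultures, and p-values here reflect the spread between arrays alone, which may be technical. In bulk RNA, fewer cells that carry a transcript and less of it per cell cannot be told apart.

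RNA polymerase I copies the large ribosomal RNA precursor, RNA polymerase II makes messenger RNA and most small nuclear RNAs, and RNA polymerase III makes transfer RNAs, the smallest ribosomal RNA and other short RNAs. Each enzyme has a catalytic core of a pair of large subunits, a stalk, a small assembly platform and the subunits that all 3 share. Pol I and Pol III use POLR1C and POLR1D as their platform, where Pol II uses POLR2C and POLR2J.

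Transcripts of the polymerase subunits were mostly higher after knockdown. Of the 25 genes 14 rose and 1 fell (limma, Benjamini-Hochberg adjusted p under 0.05 over all genes). Over all genes tested, 8.41% rose and 8.35% fell. Many of those genes read low: when only probe sets with a mean of at least 5 were fitted, 15 of 24 members rose. Of all 11702 genes then left, 16.1% rose. The median log2 difference of the 25 genes was 0.36, against 0.03 over all genes, and 20 of the 25 had a positive difference, against 55.4% of all genes. Rises were modest in size: among the 14 the fold ran from 1.26 to 2.06 with a median of 1.403, and POLR2F was the member that reached 2-fold. All 14 had every knockdown array above every control array. Such separation was seen in 17 members, and in 16.9% of all genes; in 2 members, POLR1D and POLR2M, every knockdown array lay below, as in 15.5% of all genes. At the level of single probe sets 16 of 64 rose and 1 fell, against 5.94% and 6.68% of all probe sets, and the 16 came from 10 of the 14 genes. Of the 64, 55 had a positive difference (52.3% of all probe sets), 34 had the knockdown arrays above the controls and 3 below (14.8% of all probe sets each way).

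The count of 14 moved when the level of RNA spiked in before labelling entered the fit and when single arrays were left out. The poly-A spike-in controls read 6.36, 6.48 and 6.95 on the control arrays and 7.12, 6.79 and 6.93 on the knockdown arrays. With that level as a covariate 1 of 25 genes rose, POLR2F, and 1 fell, POLR1D, against 1.56% of all genes that rose. The median difference of the members was then 0.27 and 21 had a positive difference. Control 3, whose spike-in level fell between those of knockdown 2 and knockdown 1, was the highest control for 15 of the 25 members, including 12 of the 14 that rose, and for 41.9% of all genes. Without control 3 the count stayed at 14 of 25, where 10.5% of all genes rose. It was 9 without control 1 (4.82% of all genes), 8 without knockdown 2 (5.55%) and 6 without knockdown 1 (4.38%). POLR1A, POLR2F, POLR2L, POLR3G and POLR3K rose, and POLR1D fell, whichever array was left out; POLR1C, POLR1E, POLR2A, POLR2D, POLR2E, POLR2H, POLR2I and POLR3B missed the threshold without knockdown 1.

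**Figure D1:**
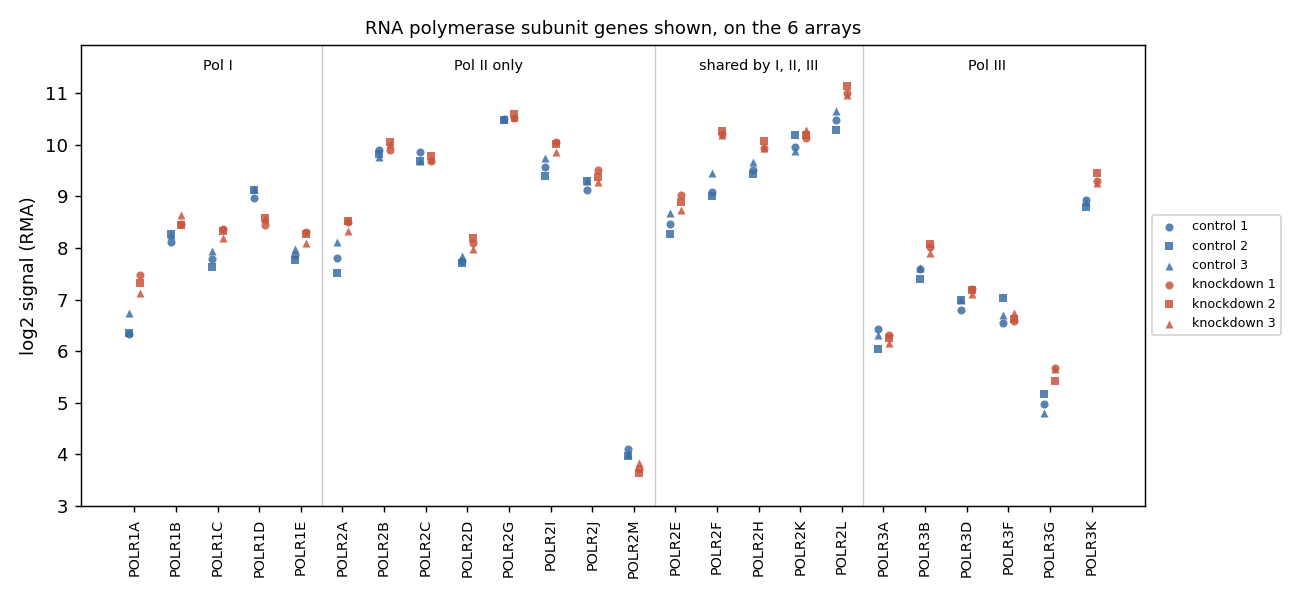
Log2 signal of 24 subunit genes on each of the 6 arrays, grouped by enzyme, with controls in blue and knockdown in red and 1 symbol per replicate number. Knockdown points lie above the control points for 16 genes and below them for POLR1D and POLR2M; levels of different genes are not comparable, since each is read by its own probes.

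Sequence before the start of 3 members is shown because they carry the range of the result: POLR2F had the largest rise, POLR2L rose on all its probe sets, and POLR1D is the gene that fell. These are the 250 bases before the most upstream RefSeq start (GRCh38.p14), read 5′ to 3′ on the gene's strand, at chr22:37953413-37953662, plus strand, for POLR2F, chr11:842530-842779, minus strand, for POLR2L and chr13:27620493-27620742, plus strand, for POLR1D. Capitals mark matches on either strand. The letters searched were CCGGAA, the core of sites of the ETS family of factors, GCATGC, the centre of the NRF1 site, CACGTG, known as the E-box, CCAAT, a common promoter box, TATAAA, the element bound by the TATA-binding protein, and AACAAT, the core of sites of the SOX family; none of these letter strings holds another.
POLR2F: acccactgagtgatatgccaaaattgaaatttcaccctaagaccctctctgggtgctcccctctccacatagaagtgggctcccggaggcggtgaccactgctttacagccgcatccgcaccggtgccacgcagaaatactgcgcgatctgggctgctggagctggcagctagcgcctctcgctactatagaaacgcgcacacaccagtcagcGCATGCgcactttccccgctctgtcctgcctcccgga
POLR2L: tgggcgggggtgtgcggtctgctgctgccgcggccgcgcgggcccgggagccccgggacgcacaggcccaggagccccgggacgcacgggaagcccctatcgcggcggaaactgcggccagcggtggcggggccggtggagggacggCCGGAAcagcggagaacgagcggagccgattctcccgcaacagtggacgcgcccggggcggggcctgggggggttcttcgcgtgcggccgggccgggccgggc
POLR1D: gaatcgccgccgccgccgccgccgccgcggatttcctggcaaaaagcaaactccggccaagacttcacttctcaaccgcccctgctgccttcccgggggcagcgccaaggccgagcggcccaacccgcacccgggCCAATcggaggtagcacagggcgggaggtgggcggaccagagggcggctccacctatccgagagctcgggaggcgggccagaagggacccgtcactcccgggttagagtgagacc

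POLR2F held the NRF1 letters once, POLR2L the ETS core and POLR1D the CCAAT box. RefSeq windows were matched for 17 of the 25 members. The ETS core was in 7 of the 17 (41.2%), against 14.8% of 27305 windows of the same length, with POLR1B, POLR1C, POLR2C, POLR2H, POLR2M and POLR3A beside POLR2L. Of these 7, POLR1C, POLR2H and POLR2L rose. POLR1B (0.31), POLR2C (-0.004), POLR2M (-0.30) and POLR3A (-0.02) were not called. A link between the letters and the differences was not tested. The NRF1 letters were in 2 of 17 (11.8%, against 6.46%), POLR2F and POLR3A. The SOX letters were in 1 of 17, POLR1A (5.88%, against 9.24% of all windows), and the CCAAT box in 3 of 17 (17.6%, against 33.0%), POLR1D, POLR3B and POLR3K. The E-box was in POLR3A alone (6.46% of all windows) and the TATA box in POLR2M alone (11.2%). A match is a description of letters and was not tested for binding.

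Of the 5 shared subunits 4 rose, where 8.41% of all genes did, with a median log2 difference of 0.44. The count was 2 of 5 without control 1, without knockdown 1, without knockdown 2 or with the replicate number as a block, and 1 of 5 with the spike-in covariate. POLR2F, a small subunit that helps to assemble and hold the core, read 9.09, 8.999 and 9.44 on control arrays and 10.20, 10.27 and 10.18 on knockdown arrays. The knockdown arrays lie close together, and control 3 is the highest control. Its difference was 1.04 (SE 0.12, limma adjusted p = 6.28e-04), which lies above that of 99.6% of all genes. The second probe set of POLR2F differed by 0.19 (adjusted p = 0.314 over all probe sets), although its groups did not overlap either. Both probe sets align, in the deposited table, to chromosome 22, positions 38349669 to 38365317 on the plus strand, in a build not given in the sources used here.

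POLR2L, a small zinc-binding subunit of the platform, read 10.49, 10.28 and 10.65 on control arrays and 10.998, 11.14 and 10.97 on knockdown arrays. No control reached the knockdown range. The difference was 0.56 (SE 0.11, limma adjusted p = 0.00838), and the other probe sets of the gene read 0.59 and 0.62, both called over all probe sets (adjusted p = 0.0157 and 0.0115). All 3 probe sets of POLR2L therefore passed, but they are not independent. The deposited table aligns the targets of the other probe sets to the same stretch of chromosome 11, positions 840371 to 842508. That stretch lies inside that of the first, 839189 to 842529.

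POLR2H, a core subunit shared by the enzymes, read 9.50, 9.44 and 9.67 on control arrays and 9.94, 10.07 and 9.93 on knockdown arrays, a log2 difference of 0.44 (SE 0.10, limma adjusted p = 0.0143). POLR2E, a subunit of the jaw that grips downstream DNA, read 8.46, 8.28 and 8.67 on control arrays and 9.03, 8.89 and 8.74 on knockdown arrays, a log2 difference of 0.41 (SE 0.12, limma adjusted p = 0.0456). For POLR2E control 3 lies just under the lowest knockdown array, and the adjusted p lies just under the threshold. All 5 probe sets of POLR2E read higher, from 0.38 to 0.49, and none was called over all probe sets, where the adjusted p ran from 0.0623 to 0.176; 4 of the 5 had groups that did not overlap. POLR2K, the remaining small zinc-binding subunit, read 9.96, 10.19 and 9.87 on control arrays and 10.13, 10.18 and 10.28 on knockdown arrays, so that the groups overlap. Its difference was 0.19 (95% interval -0.05 to 0.43, adjusted p = 0.295), while its other probe set read 0.37 (adjusted p = 0.0579 over all probe sets).

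**Figure D2:**
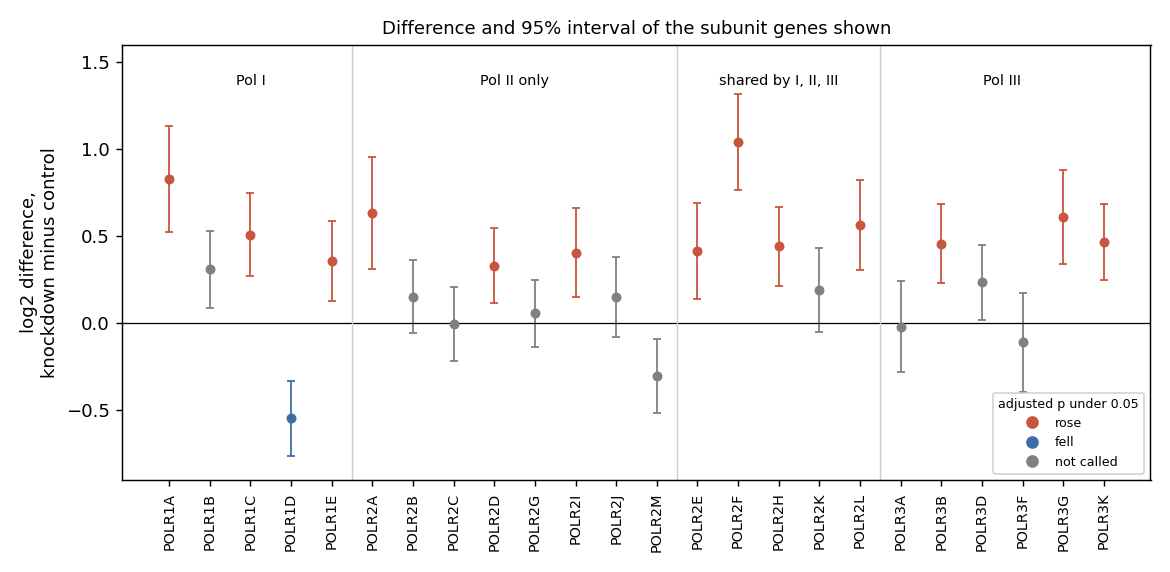
Log2 difference of 24 subunit genes, knockdown minus control, with the 95% interval of the limma fit; red marks 13 genes that rose, blue the 1 that fell and grey the 10 that were not called. POLR2F stands highest at 1.04 and POLR1D lowest at -0.55.

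Of the 5 Pol I genes 3 rose and 1 fell, where 8.41% and 8.35% of all genes did. The count that rose was 1 without knockdown 1, and limma called 0 higher with the spike-in covariate. POLR1A, the largest subunit and part of the active site, read 6.34, 6.35 and 6.74 on control arrays and 7.47, 7.32 and 7.12 on knockdown arrays. Control 3 stands between the other controls and the knockdown arrays. The difference was 0.83 (SE 0.14, limma adjusted p = 0.00304), and the second probe set of POLR1A also rose, by 0.37 (adjusted p = 0.0448 over all probe sets). POLR1C read 7.78, 7.64 and 7.94 on control arrays and 8.36, 8.32 and 8.20 on knockdown arrays, a log2 difference of 0.51 (SE 0.11, limma adjusted p = 0.00968). A second POLR1C probe set rose by 0.44 and the third, which reads under 5, differed by 0.23 (adjusted p = 0.306).

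POLR1E, a subunit found in Pol I that helps it to initiate and elongate, read 7.86, 7.77 and 7.97 on control arrays and 8.31, 8.27 and 8.09 on knockdown arrays, a log2 difference of 0.36 (SE 0.10, limma adjusted p = 0.0416). Over all probe sets it missed the threshold (adjusted p = 0.0607), and its others read 0.19 and 0.20. The call of POLR1E over genes was lost under 9 of 18 alternatives. POLR1B, the second-largest subunit, was higher on all 6 of its probe sets, by 0.06 to 0.31, with none called; the probe set of highest signal read 0.31 (95% interval 0.09 to 0.53, adjusted p = 0.0607 over genes).

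POLR1D was the member that fell. The platform partner of POLR1C, it read 8.96, 9.12 and 9.14 on control arrays and 8.45, 8.58 and 8.55 on knockdown arrays, a log2 difference of -0.55 (SE 0.10, limma adjusted p = 0.00441) that leaves every knockdown array below every control array. Its other probe sets went the other way without passing, at 0.14 (adjusted p = 0.575) and 0.11 (adjusted p = 0.55). The deposited table aligns the target of the probe set that fell to chromosome 13, positions 28195612 to 28197589, and those of the others to 28195915 to 28241551 and to 28238763 to 28240396, all on the plus strand. The first of these spans nearly all of the stretch of the probe set that fell, and the last does not overlap it; whether position matters was not tested. With the mean of its 3 probe sets POLR1D differed by -0.10 and was not called.

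Pol I subunits that the table lists under older names were no members and were read beside them, with CRCP, a Pol III stalk subunit. Of these 4 genes 2 rose: POLR1G, the partner of POLR1E, by 0.77 (adjusted p = 8.30e-04) and POLR1F, a stalk subunit, by 0.51 (adjusted p = 0.0403). The other two, POLR1H and CRCP, were not called.

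Of the 8 Pol II genes that the other enzymes do not use, 3 rose and 5 were not called, with a median difference of 0.15. Over all genes 8.41% rose. At the level of probe sets 1 of 15 rose (6.67%), close to the 5.94% of all probe sets. The gene count was 1 of 8 without control 1, control 2 or knockdown 2, with the block, and with the most variable or the mean probe set. Limma called 0 of 8 higher without knockdown 1 or with the spike-in covariate. POLR2A, the largest subunit, whose repeated tail is phosphorylated through the transcription cycle, read 7.81, 7.52 and 8.11 on control arrays and 8.51, 8.51 and 8.32 on knockdown arrays, a log2 difference of 0.63 (SE 0.14, limma adjusted p = 0.0141). Controls spread more widely here than knockdown arrays, from 7.52 to 8.11. The other probe sets of POLR2A read 0.09 and 0.04 and were not called, so its rise rests on 1 of 3 probe sets. POLR2I, a zinc-binding subunit with a part in start selection and fidelity, read 9.56, 9.39 and 9.75 on control arrays and 10.05, 10.02 and 9.85 on knockdown arrays, a log2 difference of 0.41 (SE 0.11, limma adjusted p = 0.0372). POLR2D, which forms the stalk with POLR2G, read 7.74, 7.71 and 7.84 on control arrays and 8.10, 8.19 and 7.98 on knockdown arrays, a log2 difference of 0.33 (SE 0.10, limma adjusted p = 0.0434). A second probe set of POLR2D read -0.22 (adjusted p = 0.547 over all probe sets), and neither POLR2I nor POLR2D passed over all probe sets (adjusted p = 0.0555 and 0.0628).

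The other Pol II genes differed less. POLR2B, the second-largest subunit, differed by 0.15 (95% interval -0.06 to 0.36), and POLR2J, the platform partner of POLR2C, by 0.15 (-0.08 to 0.38). POLR2J has close gene copies, and its probe sets can match them. POLR2G differed by 0.06 (-0.14 to 0.25) and POLR2C by -0.004 (-0.22 to 0.21). The 4 probe sets of POLR2C ran from -0.25 to 0.26. POLR2M, which encodes a Pol II-associated protein rather than a core subunit, read 4.03 ± 0.07 in control and 3.72 ± 0.09 in knockdown (SD, n = 3), the 1 member gene with a mean under 5, with a difference of -0.30 (limma adjusted p = 0.0587).

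Of the 7 Pol III genes 4 rose, where 8.41% of all genes did, with a median log2 difference of 0.46. Without knockdown 1 or knockdown 2 the count was 3, and with the spike-in covariate limma called 0. It was 2 without probe sets that carry the maker's mark for possible matches to other transcripts. POLR3G, which encodes the form of an initiation subunit known from stem and cancer cells, read 4.97, 5.16 and 4.79 on control arrays and 5.68, 5.42 and 5.65 on knockdown arrays, a log2 difference of 0.61 (SE 0.12, limma adjusted p = 0.0074). POLR3G lies near the low-signal limit of 5 and close to the array medians, which ran from 5.42 to 5.48. The authors' summary method compresses differences at low signal. The other POLR3G probe set, at 2.18 to 2.56, differed by 0.15. The probe sets that stand for POLR3G, POLR3K, POLR2D, POLR2E and POLR1E are marked in this way, and with such probe sets left out none of the 5 genes was called.

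POLR3K, a small subunit that in yeast takes part in termination and reinitiation, read 8.92, 8.79 and 8.89 on control arrays and 9.30, 9.45 and 9.26 on knockdown arrays, a log2 difference of 0.47 (SE 0.10, limma adjusted p = 0.00925). POLR3B, the second-largest subunit, has 1 probe set and read 7.60, 7.40 and 7.61 on control arrays and 8.01, 8.07 and 7.90 on knockdown arrays, a log2 difference of 0.46 (SE 0.10, limma adjusted p = 0.0124). In neither gene does control 3 stand apart from the other controls. POLR3A, the largest subunit, differed by -0.02 (95% interval -0.28 to 0.24), and its 3 probe sets ran from -0.02 to 0.13. POLR3D was higher on all 5 probe sets, by 0.04 to 0.24, with none called. POLR3F, which takes part in initiation, differed by -0.11 (-0.39 to 0.17), and its second probe set by -0.67 (adjusted p = 0.0739 over all probe sets).

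**Figure D3:**
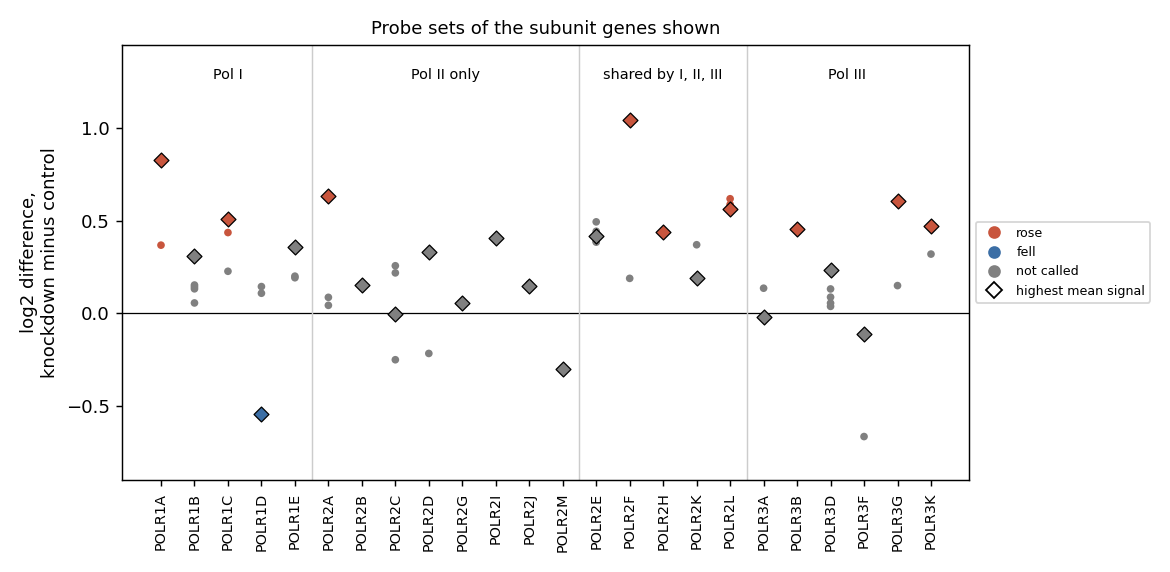
Log2 difference of 60 probe sets of 24 subunit genes, coloured by the call over all probe sets; outlined diamonds mark the probe set of highest mean signal. Of the 18 genes with several probe sets 14 have all of them on 1 side of 0, and POLR1D, POLR2C, POLR2D and POLR3A have both signs.

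Probe sets that name a polymerase gene together with another gene were no members. Of these 17, limma called 0 higher and 2 lower, where 5.94% and 6.68% of all probe sets were called. At an unadjusted p under 0.05 in limma, 0 were higher and 7 lower. Of all 49293 probe sets 6236 were higher and 6692 lower at that level. The median difference of the 17 was -0.25, against 0.01 over all probe sets. The probe set shared by POLR3GL, the close relative of POLR3G, and a second locus fell by 0.52 (adjusted p = 0.0192), and 1 of 7 that name POLR2M fell by 0.46 (adjusted p = 0.0146). The 3 that name POLR3C differed by -0.25 to -0.34, and the 1 that names POLR3E, another Pol III subunit, by -0.26, without passing. Those that name POLR2J2 and POLR2J3, gene copies of POLR2J, read 0.04 to 0.29. Counted by symbol alone, therefore, the members leave out some Pol III genes whose probe sets read lower.

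Averaged over the genes of a group, the knockdown arrays lay above the controls in each subunit group. Relative to each gene's control mean, the 5 shared genes lay at -0.03, -0.10 and 0.13 on the control arrays and at 0.53, 0.58 and 0.49 on the knockdown arrays. Pol III genes lay at 0.00, -0.02 and 0.02 on control and 0.37, 0.33 and 0.30 on knockdown arrays, and Pol I genes at -0.07, -0.05 and 0.13 against 0.33, 0.31 and 0.24. Pol II genes without the shared subunits lay at 0.02, -0.08 and 0.06 against 0.19, 0.21 and 0.13. All genes together lay between -0.04 and 0.05 on the 6 arrays. The groups were not tested against each other.

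**Figure D4:**
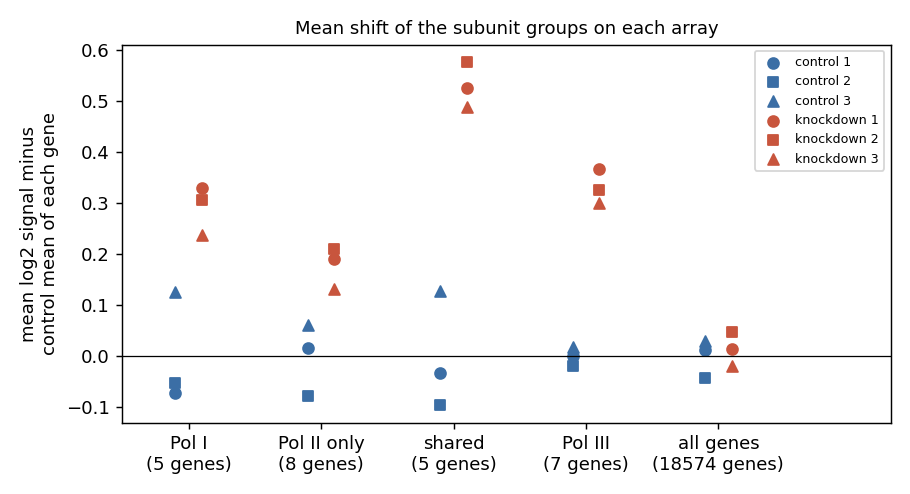
Mean log2 signal of each subunit group on each array, relative to the control mean of each gene, with controls in blue and knockdown in red. The knockdown arrays lie above the controls in all 4 subunit groups, and control 3 is the highest control in each of them.

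Genes that work with the polymerases were read as lists, where 8.41% of all genes rose and 8.35% fell. Of 28 Pol II general transcription factors, a list that also holds the elongation factor TCEA1, 3 rose and 5 fell, with a median of -0.10. GTF2H5 and GTF2E2, subunits of TFIIH and TFIIE, rose by 0.77 and 0.48, while the elongation factor TCEA1, which rescues stalled Pol II, fell by 0.84 and CDK7, the kinase of TFIIH, by 0.42. Of 26 elongation and tail-modifying factors 4 rose and 1 fell (median 0.11), with the PAF complex subunits PAF1 and CTR9 at 0.65 and 0.57, the kinase CDK12 at 0.61 and the pausing factor NELFCD at 0.56. Of 29 Mediator subunits 5 rose and 1 fell (median 0.10), with MED31 at 0.52, MED19 at 0.46, MED24 at 0.39 and MED30 at -0.65.

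Among 7 Pol I initiation and termination factors 2 rose, the termination factor TTF1 (0.66) and TAF1B (0.52), a subunit of the selectivity factor. The median of the 7 was 0.15. Of 17 Pol III factors 1 rose, the TFIIIC subunit GTF3C6 (0.82, adjusted p = 0.00118), and the median of 0.04 was close to that of all genes; the smallest p after it was that of GTF3C1 (0.38, adjusted p = 0.0540). Of 13 assembly and import factors RUVBL2 rose by 0.59 and RPAP2, a phosphatase of the Pol II tail, fell by 0.36. For the mitochondrial polymerase limma called 0 of 5 (1 at an unadjusted p under 0.05), with TFAM at 0.35 (adjusted p = 0.0542) and TFB2M at 0.20. By list, 28.6% of the Pol I factors rose, 17.2% of the Mediator subunits and 15.4% of the elongation and tail-modifying factors. The share was 10.7% for the general factors, 7.69% for the assembly and import factors and 5.88% for the Pol III factors. Over these lists and the 4 subunit genes read beside the members, 18 of 129 genes rose and 8 fell. Over all genes 8.41% rose and 8.35% fell. With only probe sets of a mean of at least 5, 23 of 125 rose and 14 fell. Of all 11702 genes then left, 16.1% rose and 1771 genes fell.

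SOX9 itself read 8.15, 7.99 and 7.67 on control and 6.91, 7.08 and 6.90 on knockdown arrays, which leaves 51.0% of the control signal (log2 difference -0.97, SE 0.13, limma adjusted p = 0.00114). This probe set is marked for possible matches to other transcripts, and with such probe sets left out SOX9 differed by -0.81 and missed the threshold (adjusted p = 0.0569), as it did with its most variable probe set (adjusted p = 0.0526). The label HepG2 was set against 17 hepatocyte genes, of which 4 had a mean of at least 5. Their mean lay between 3.82 and 4.18 over the 6 arrays, where leukocyte, endothelial and fibroblast markers lay between 3.66 and 4.88, and ALB, the gene of serum albumin, read 3.14 ± 0.44 in control (SD, n = 3). Of the markers, 2 hepatocyte genes rose, RBP4 by 1.26 (limma adjusted p = 6.89e-04) and HNF4A by 0.54 (adjusted p = 0.025), as did 1 leukocyte gene, CD68, by 0.62 (adjusted p = 0.0082) and 1 fibroblast gene, DCN, by 0.59 (adjusted p = 0.00759); their part in the rise of the subunits was not tested. The low hepatocyte levels go against the label, although the signal of one gene cannot be set directly against that of another. Correlations between arrays were 0.992 to 0.996 within groups and 0.982 to 0.992 between them. RNA quality was read from the difference between the 3′ and 5′ control sets of GAPDH, which was 0.04, 0.03 and 0.26 on control and 0.42, 0.37 and 0.24 on knockdown arrays, and control 3 thus lay with the knockdown arrays; that of beta-actin was 2.56, 2.55 and 2.51 on control and 2.29, 2.34 and 2.19 on knockdown arrays. The part of RNA quality in the rise of the subunits was not tested.

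The counts moved with the alternatives. With the spike-in covariate 1 of 25 members rose against 1.56% of all genes, and a single gene gives no difference from that share. With the replicate number as a block 9 of 25 members rose against 5.77% of all genes, with array weights 16 of 25 against 11.8%, and without the marked probe sets 9 of 23 against 6.89%. Without control 2 the count was 10 (6.05%) and without knockdown 3 it was 13 (6.46%). Of the 64 probe sets, 26 rose with array weights (8.82% of all probe sets), 8 with the block (2.93%) and 1 with the spike-in covariate (0.771%), and 10 of those left without the marked ones (5.06%). Leaving out control 1, 2 or 3 gave 3 (2.29%), 9 (3.75%) and 23 (8.07%), and leaving out knockdown 1, 2 or 3 gave 3 (2.17%), 5 (3.35%) and 12 (3.35%).

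**Figure D5:**
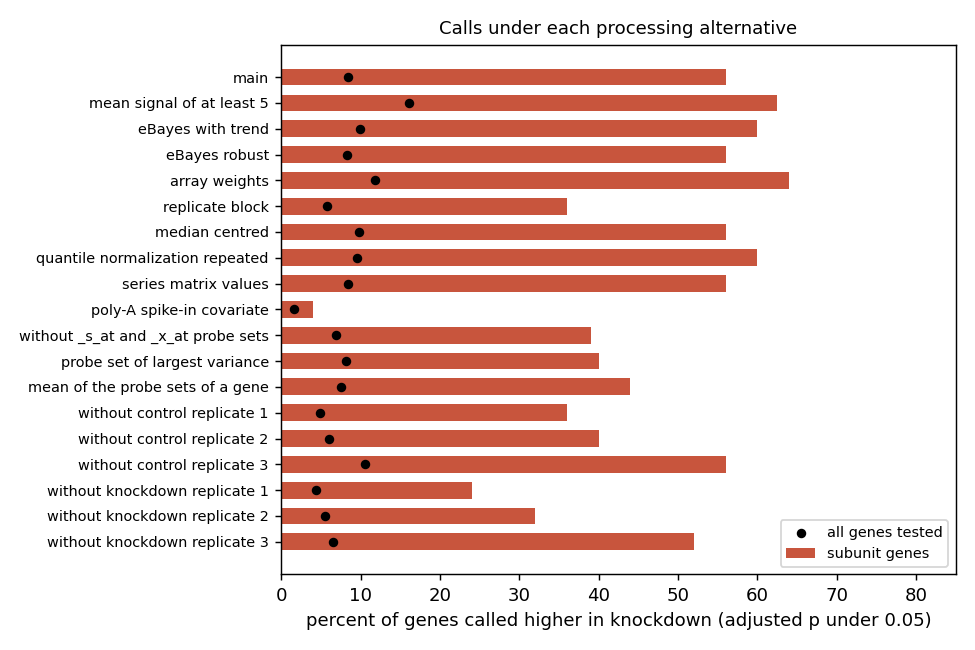
Percent of subunit genes (bars) and of all genes tested (points) that were called higher in knockdown under the analysis as reported (main) and under each alternative. The bars run from 4% with the spike-in covariate to 64% with array weights; the 4% stands for 1 gene.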

How the data were processed

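Biotin-labelled RNA of 6 samples was measured on Affymetrix expression arrays, 3 control and 3 knockdown, assigned by title. The deposited table holds log2 values of 49372 probe sets, made by the authors with RMA and the affy package, per the submitters' processing notes, with versions and array design not given in the sources used here. This method equalises the arrays and compresses low signals. The series matrix values were identical. After 79 control sets were left out, 49293 remained, of which 46240 carry 1 gene; 46035 were named through their Entrez number (RefSeq table of GRCh38.p14). A gene was represented by the probe set of highest mean. Probe sets of 1 gene share their source and are not independent.

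Differences came from limma 3.58.1 (R 4.3.3; lmFit and eBayes, two-sided, without covariate or filter), with Benjamini-Hochberg adjustment over all 18574 genes or all 49293 probe sets and a threshold of 0.05. Errors are SE of the fit or SD of 3 arrays; the number of arrays limits the precision. Members are named, except 1 gene that enters the counts and is not reported by itself here, with single-array values for those called and for the shared subunits; of each list of partner genes up to 4 called genes of largest change, or the 2 of smallest p, are named. Members and lists were chosen with earlier results of these data known. The fit was tested on simulated data. Tables used Python 3.11.15 with pandas 2.3.3, plots matplotlib 3.10.9.

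Alternatives were a signal filter, a variance trend, robust variances, weighted arrays, replicate blocks, further normalization, the series matrix, the spike-in level as a covariate, other choices of probe set, and leaving out each array.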

Additional observations from a re-analysis of the deposited data

How the results depend on the processing

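Of 447 values of single members under the alternatives, 372 kept direction and side of the threshold, 53 lost the call, 7 gained one and 15 changed sign. POLR2F kept its call under all 18, POLR1A and POLR2L under all but the spike-in covariate, and POLR1D under all but the mean of probe sets. The 14 members that rose numbered 9 with the replicate block, 9 without _s_at and _x_at probe sets, 1 with the spike-in covariate and 6 to 14 without single arrays (9 without control 1, 8 without knockdown 2, 6 without knockdown 1). The 1 that fell, POLR1D, became 2 with array weights, where POLR2M was called lower as well, and stayed 1 without single arrays. With the mean of probe sets the 1 called lower was POLR2M and not POLR1D. Of probe sets, 16 rose, against 26 with array weights, 8 with the block, 1 with the spike-in covariate, 10 without _s_at and _x_at and 3 to 23 without single arrays; 1 fell, against 3 with weights, 0 by limma with the spike-in covariate and 0 to 2 without single arrays. Over all genes 1563 rose (290 with the spike-in covariate, 814 to 1951 without single arrays) and 1551 fell (477, and 944 to 1612). Of the partner genes and the 4 subunit genes read beside the members, 18 rose (3, and 10 to 23). Of the same genes 8 fell, against 14 with the filter, 13 with trend, 15 with weights and 2 with the block. That count was 1 with the spike-in covariate, 5 without _s_at and _x_at, 5 with the most variable probe set and 1 to 13 without single arrays. SOX9 missed the threshold with the most variable probe set and without _s_at and _x_at (-0.81, adjusted p = 0.0526 and 0.0569), and ran from -1.10 to -0.86 without single arrays. Sign changes concerned POLR2D, -0.22 with the most variable probe set and without _s_at and _x_at, and 3 members that were not called. POLR2C read 0.0157 with median centring, 0.0709 with the spike-in covariate, 0.0546 with the mean of probe sets and -0.0354 to 0.0524 without single arrays. POLR3A read 0.0006 with median centring, 0.135 with the most variable probe set, 0.0345 with the mean of probe sets and -0.1315 to 0.0665 without single arrays. POLR3F ran from -0.2131 to 0.0249 without single arrays. Fewer arrays or probe sets enter some of these fits, and causes were not tested. Arrays of equal number did not deviate together (r = -0.24, -0.40 and -0.42 for numbers 1, 2 and 3) and no array correlated best with that of its own number, so the numbers were not taken as pairs and the block is given here as an alternative.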
